A study of Mus musculus with 48 samples.

Results

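Astrocytes sorted from the cerebral cortex were compared with astrocytes sorted from the hippocampus. The comparison takes 12 of the 48 libraries of the series, 6 from each region, namely every GFP library that the titles place in cortex or hippocampus. All 12 came from mice with the genotype Aldh1l1-GFP, a reporter in which regulatory sequence of the astrocyte gene Aldh1l1 drives green fluorescent protein. All 12 also carry the label Gq, which stands for an engineered receptor that signals through Gq. In each region 3 libraries are labelled Gq-CNO, after clozapine-N-oxide, the ligand of that receptor, and 3 are labelled Gq-Saline. No library of this comparison is therefore free of the Gq label, and the labels used here give neither age nor sex, nor the cells that carry the receptor. Nor do they say which libraries, if any, share an animal, and the spread behind each p-value is that among libraries and may be technical. The series also holds 12 libraries of cells labelled mCh neurons from cortex and hippocampus, with the same Gq labels, used here as a second sort. From the olfactory bulb it holds 6 GFP astrocyte libraries with these labels, used for levels alone.

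Astrocytes clear glutamate and potassium from around synapses, feed neurons with metabolites, and secrete proteins that act on synapse formation and maturation. They share 1 core programme across the brain, with glutamate transporters, a water channel and gap junction proteins, and differ between regions in other genes. A textbook difference between these 2 regions is the intermediate filament protein GFAP, which is easily stained in hippocampal astrocytes and hardly in the protoplasmic astrocytes of cortical grey matter. The hippocampus also borders the lateral ventricle and its choroid plexus, the epithelium that makes cerebrospinal fluid.

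Depth, in reads assigned to genes, ran from 325129 to 16367874 in cortex and from 2105201 to 24664376 in hippocampus. Levels are given as normalised reads, which are read counts divided by 1 size factor per library, computed over the 12 libraries together. Astrocyte markers led every library. The sum of 16 astrocyte markers was 84700 to 136900 in cortex and 95950 to 125100 in hippocampus, in RPM (a library's reads scaled to 1000000), and the sum of 11 neuron markers was 563 to 1604 and 594 to 804.5. In each of the 4 groups 1 table column is numbered 4, where the titles give replicate 3, and these 4 libraries stood apart. Their correlations with other libraries, across genes, were 0.516 to 0.75, against 0.815 to 0.896 among the 8 libraries numbered 1 or 2. Among them, the cortical Gq-Saline library had the highest sums of microglia (2798 RPM), oligodendrocyte (3209 RPM) and neuron markers (1604 RPM), and the cortical Gq-CNO library the lowest depth, 325129 reads. Results are therefore given with and without these 4 libraries. The transcripts Xist, from the inactive X chromosome, and Ddx3y, from the Y chromosome, showed further differences among libraries. Cortical and hippocampal Gq-Saline number 1 and hippocampal Gq-Saline number 4 had Xist reads and at most 1 read of Ddx3y, whereas cortical Gq-Saline number 4 had 77 reads of Xist and 182 of Ddx3y, and hippocampal Gq-CNO number 4 had 15 and 124. The part of this difference in the results was not tested.

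Few genes were called between the regions. Of 10559 genes tested, 13 passed an adjusted p of 0.05 (0.123%), of which 5 were higher in the hippocampus (0.0474%) and 8 in the cortex (0.0758%). An unadjusted p under 0.05 was reached by 618 genes (5.85%), 359 higher in the hippocampus (3.4%) and 259 in the cortex (2.45%). edgeR called 9 genes (0.0852%), 2 higher in the hippocampus (0.0189%) and 7 in the cortex (0.0663%), and all 9 are among the 13. DESeq2 called 46 (0.436%), 26 and 20 (0.246% and 0.189%). On the simulated libraries 42 of its 152 calls were false, against 0 of 69 for limma. There limma recovered 8% of 2-fold and 61% of 4-fold region differences. A gene or list without a call may therefore still differ between the regions. With libraries weighted by how well they fit, limma called 282 (2.67%), 127 higher in the hippocampus (1.2%) and 155 in the cortex (1.47%). The 6 hippocampal and 6 cortical libraries did not overlap for 80 genes (0.758%), 44 with the hippocampus above (0.417%) and 36 with the cortex above (0.341%), and 10 of the 13 called genes were among these. The median difference over all tested genes was 0.12 on the log2 scale, hippocampus minus cortex, and 0.02 after quantile normalization, under which 8 genes were called higher in the hippocampus and 7 in the cortex. All differences below are on this scale, log2(value + 1), in that direction, with a standard error (SE).

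**Figure D1:**
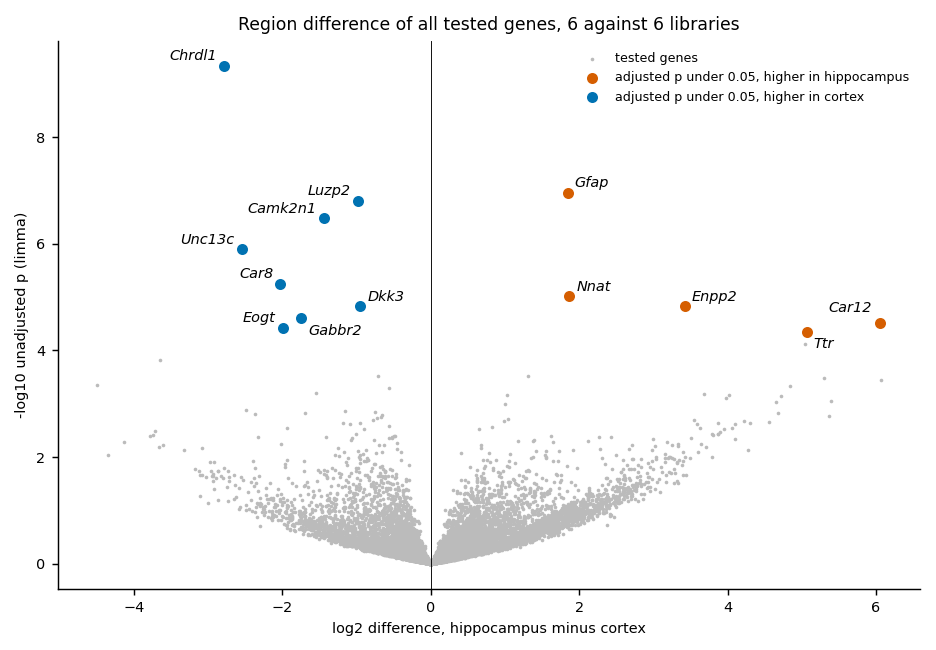
Difference of each of the 10559 tested genes (x axis, log2, hippocampus minus cortex) against its unadjusted p (y axis, -log10), with grey points for all genes and coloured points for the 13 called genes. Chrdl1 stands highest at the left, Gfap highest at the right, and Car12, whose cortical level is at 0 reads in 5 of 6 libraries, has a position that depends on the pseudocount.

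The 8 genes called higher in the cortex were led by Chrdl1, which encodes chordin-like 1, a secreted antagonist of bone morphogenetic proteins (BMPs) that astrocytes release and that promotes synapse maturation. Chrdl1 lies on chromosome X between 143285674 and 143394262 (mm10). The 6 cortical libraries had 1950 to 3545 normalised reads of it with a median of 2991, and the 6 hippocampal libraries 277.9 to 504.6 with a median of 422. Every cortical library stood far above every hippocampal one. The means were 2826 ± 595 and 407 ± 75.1 (SD, n = 6 each), a difference of -2.79 (SE 0.22, adjusted p = 4.8e-06).

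Unc13c, a member of the Munc13 family that primes vesicles for release, lies on chromosome 9 between 73479422 and 73968966. It ran from 610.6 to 1205 (median 968) in cortex and from 58.57 to 238.8 (median 182) in hippocampus, a difference of -2.54 (SE 0.35, adjusted p = 0.0027). The lowest library of each region was its Gq-Saline number 4. Camk2n1, an inhibitor of the calcium/calmodulin-dependent kinase CaMKII, lies on chromosome 4 between 138454314 and 138460123 and ran from 3698 to 6480 (median 4489) against 1469 to 1994 (median 1825), a difference of -1.44 (SE 0.18, adjusted p = 0.00088). Luzp2, a leucine zipper protein gene on chromosome 7 between 54835498 and 55268885, was the most abundant of the 8. It ran from 20810 to 29980 (median 27012) in cortex and from 12050 to 13860 (median 12765) in hippocampus, a difference of -0.98 (SE 0.12, adjusted p = 0.00055). The hippocampal libraries lay within a narrow band for Luzp2 and for Camk2n1, and the cortical ones were more spread.

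The other 4 genes also had every cortical library above every hippocampal one. Car8, a carbonic anhydrase-related protein that binds the IP3 receptor, had a cortical median of 1192 and a hippocampal median of 262 (difference -2.03, SE 0.32, adjusted p = 0.0099). Its highest hippocampal library, Gq-CNO number 4, had 691.8, not far below the lowest cortical value of 800. Gabbr2, a subunit of the metabotropic GABA-B receptor, had medians of 1731 and 463 (-1.75, SE 0.31, adjusted p = 0.0265). Its lowest value in each region was in a library numbered 4. Eogt, which attaches sugars to secreted proteins with EGF-like domains, had medians of 1232 and 291.6 (-1.995, SE 0.36, adjusted p = 0.0333, and 0.066 in edgeR). Dkk3, a secreted protein of the Dickkopf family of Wnt modulators, had medians of 3630 and 1845 (-0.95, SE 0.16, adjusted p = 0.0176).

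**Figure D2:**
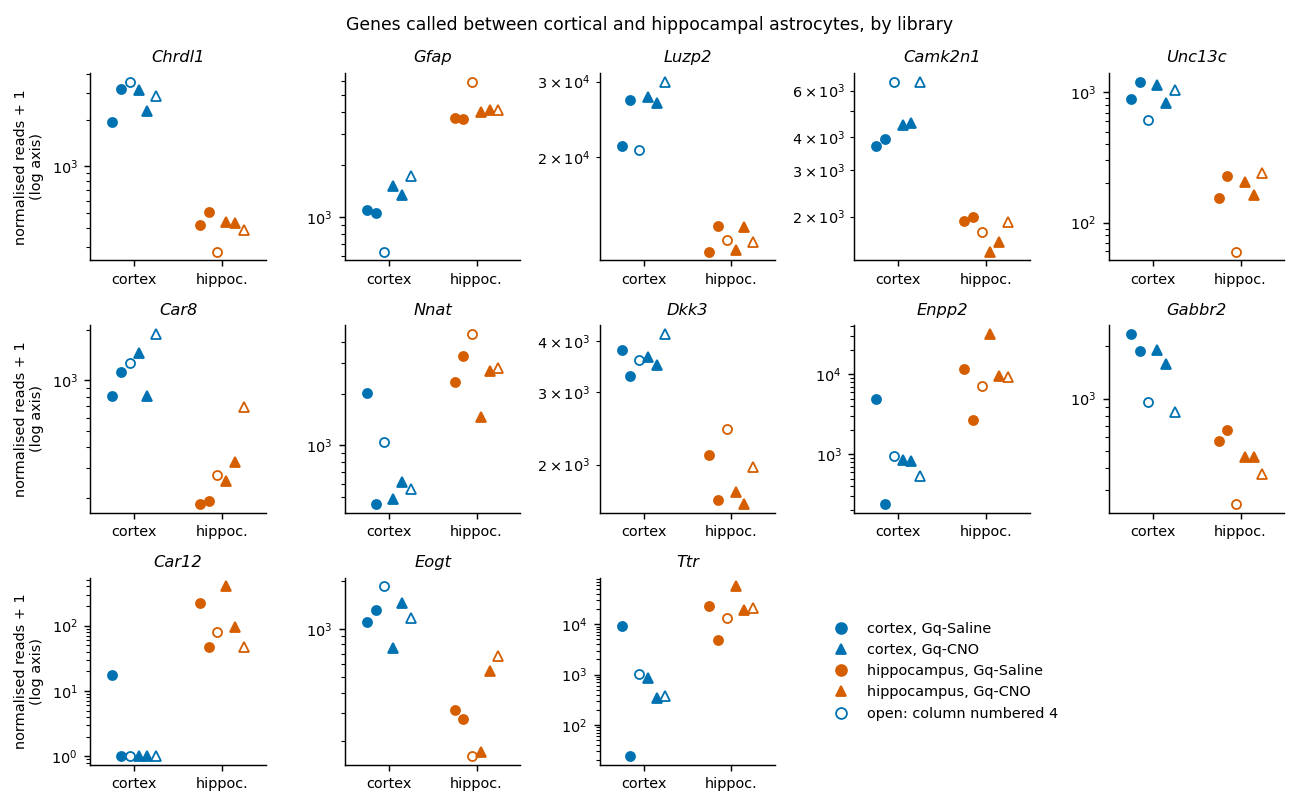
Normalised reads plus 1 (y axes, log scale, a separate range in each panel) of the 13 called genes in each of the 12 libraries, cortex at the left and hippocampus at the right of each panel, with open symbols for the 4 libraries numbered 4. Regions overlap for Nnat, Enpp2 and Ttr, and not for the other 10 genes.

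Gfap led the genes higher in the hippocampus. The gene lies on chromosome 11 between 102887336 and 102900912. The 6 cortical libraries had 632.3 to 1720 normalised reads with a median of 1223, and the 6 hippocampal libraries 3653 to 5955 with a median of 4071. The means were 1227 ± 384 and 4263 ± 855 (SD, n = 6 each), a difference of 1.84 (SE 0.21, adjusted p = 0.00055). Gq-Saline number 4 was the lowest cortical and the highest hippocampal library, and without the libraries numbered 4 the difference was 1.61.

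Nnat, Enpp2, Ttr and Car12 were the other genes called higher in the hippocampus. Enpp2 and Ttr, whose libraries overlap between regions, fall outside the rule by which genes were named and are given here because they complete the count of 5. Nnat, an imprinted gene for a small membrane protein on chromosome 2 between 157560078 and 157562522, ran from 456 to 2008 (median 586) in cortex and from 1472 to 4444 (median 2765) in hippocampus (1.87, SE 0.30, adjusted p = 0.0146). It lies on the opposite strand within Blcap, and strand was not stated for the counting. Blcap itself differed by 0.18 (adjusted p = 0.989).

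The remaining 3 genes are known from the choroid plexus. Ttr, the thyroid hormone carrier that this epithelium makes, ran from 22.76 to 9151 (median 621) in cortex and from 4835 to 57160 (median 19862) in hippocampus (5.06, SE 0.94, adjusted p = 0.0365, and 0.522 in edgeR). Enpp2, which makes lysophosphatidic acid, ran from 239.4 to 4866 (median 845) and from 2691 to 32050 (median 9432), a difference of 3.42 (SE 0.58, adjusted p = 0.0176, and 0.169 in edgeR). Car12, a membrane carbonic anhydrase, ran from 45.48 to 402.1 in hippocampus (median 86.9) and had 0 reads in 5 of 6 cortical libraries, where the limit that a count of 0 allows (3 reads) is 1.12 to 69.7 normalised reads. In the sixth, Gq-Saline number 1, it had 16.55, from 23 reads. Car12 passed the filter on low values through the hippocampal libraries, where it is high, so that it had to differ, and its fitted difference, 3.23 to 8.81 over the alternatives, is set in part by the pseudocount. Its place among the 13 therefore supports nothing further. That cortical library was also the highest of its region for Ttr and Enpp2, and hippocampal Gq-CNO number 1 was the highest of all 12 for the 3 genes.

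The summed markers of choroid plexus also differed, but the sum was mostly Ttr, 1 of these genes, and is no separate support. The sum of 7 markers (Ttr, Kl, Folr1, Kcne2, Aqp1, Clic6 and Otx2) ran from 4.36 to 1586 RPM in cortex (median 106) and from 867 to 10450 RPM in hippocampus (median 3110). Ttr alone had medians of 93.5 RPM in cortex and 2957 RPM in hippocampus. Of the 7, 0 were at 0 in all libraries. As a median over the 7 markers the difference was 3.185. In an exact permutation test of region within treatment (two-sided, 400 arrangements, smallest possible p 0.005) the sum differed by 4.999 (p = 0.01, adjusted over 15 marker lists 0.075). Only cortical Gq-Saline number 1, at 1586 RPM, reached the hippocampal range, and without it the difference was 5.97 (adjusted p = 0.0375). It was 3.92 (adjusted p = 0.1125) without cortical Gq-Saline number 2, the lowest library, and 5.12 (adjusted p = 0.05) without number 4 of that group, by the same exact permutation test. With the summed choroid plexus markers as a covariate, an alternative chosen after seeing the data, the difference was -0.08 for Ttr, itself in the sum, 0.48 for Enpp2, 3.23 for Car12 and 0.99 for Nnat. It was 1.98 for Gfap, -2.49 for Chrdl1, -2.28 for Unc13c and -1.31 for Camk2n1. In that fit limma called 0 genes and 84 had an unadjusted p under 0.05. The lowest adjusted p was 0.0709, for Chrdl1. The sum itself differed between the regions, so this fit could hardly separate it from region, and SEs grew. The SE went from 0.21 to 0.37 for Gfap and from 0.22 to 0.39 for Chrdl1. The 0 calls therefore do not show what part choroid plexus had, which was not tested.

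**Figure D3:**
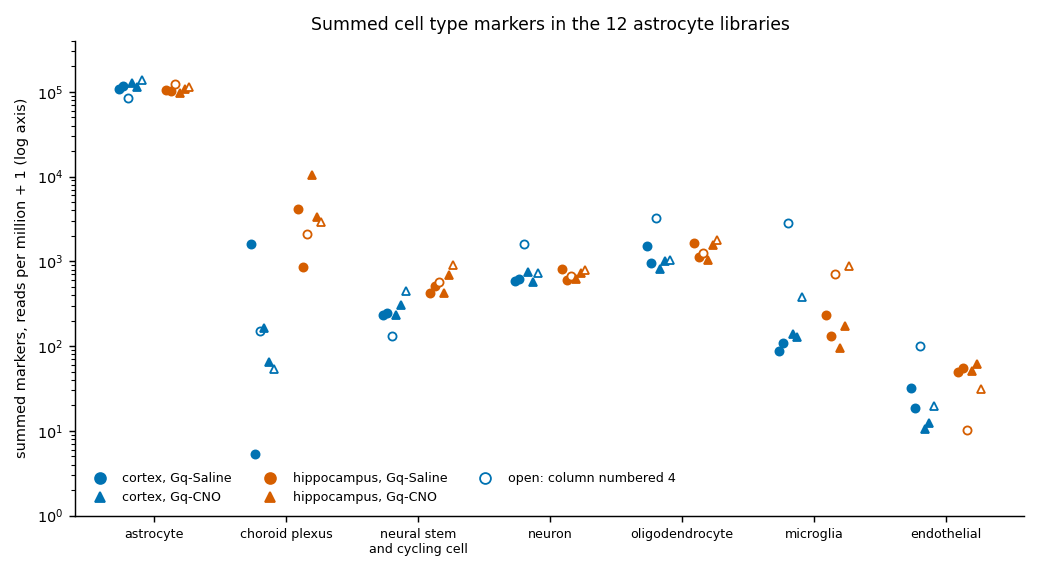
Summed markers of 7 cell types in RPM plus 1 (y axis, log scale) in each of the 12 libraries, cortex in blue and hippocampus in orange, with open symbols for the libraries numbered 4. The astrocyte sums of the regions overlap, and 5 of 6 cortical libraries lie below every hippocampal one for choroid plexus.

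Markers of the other cell types differed less. The summed markers of neural stem and cycling cells differed by 1.18 in the same exact permutation test (p = 0.01, adjusted 0.075), from 131.5 to 449.1 RPM in cortex and 417.2 to 901.1 RPM in hippocampus. Hopx, a homeodomain protein of hippocampal stem cells that astrocytes also express, had medians of 182 and 484 RPM, beside 239 and 542 for the sum of the 10 markers. It ran from 676 to 2998 normalised reads in cortex and from 1921 to 6096 in hippocampus (1.31, SE 0.29, adjusted p = 0.191). By the exact permutation test the sums differed by -0.07 for astrocytes (p = 0.53), -0.10 for neurons (p = 0.865), 0.13 for microglia (p = 0.92) and 0.13 for oligodendrocytes (p = 0.725). The astrocyte sum was mostly Slc1a2, with medians of 86540 and 78360 RPM beside 116800 and 106300 for the sum. It says little about the other markers. In sorted bulk samples, fewer cells of a type and less RNA per cell cannot be told apart.

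RefSeq promoter windows (GRCm38.p6, 250 bases before to 50 after the start) were found for 6 of the 13 called genes. Those of Gfap and Nnat, higher in the hippocampus, and of Unc13c and Gabbr2, higher in the cortex, are shown because these genes differ in opposite directions. Capitals mark any match, on either strand, to 5 motifs: TGANTCA (AP-1), TTCNNNGAA (STAT), TTGGC (an NFI half-site), ACAAT (SOX) and TATAA (TATA box).
Gfap, chr11:102897151-102897450, minus strand: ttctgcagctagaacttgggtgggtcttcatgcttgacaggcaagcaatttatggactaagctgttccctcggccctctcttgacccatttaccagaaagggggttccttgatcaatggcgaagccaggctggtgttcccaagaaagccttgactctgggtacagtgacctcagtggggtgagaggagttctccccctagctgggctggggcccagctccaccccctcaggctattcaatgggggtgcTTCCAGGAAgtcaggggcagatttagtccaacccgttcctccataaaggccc
Nnat, chr2:157559828-157560127, plus strand: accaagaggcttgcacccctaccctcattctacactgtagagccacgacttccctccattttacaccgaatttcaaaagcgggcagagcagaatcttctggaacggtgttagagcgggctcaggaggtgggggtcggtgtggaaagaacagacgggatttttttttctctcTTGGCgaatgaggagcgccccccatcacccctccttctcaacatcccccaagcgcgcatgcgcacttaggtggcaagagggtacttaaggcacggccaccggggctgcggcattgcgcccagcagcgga
Unc13c, chr9:73968988-73969287, minus strand: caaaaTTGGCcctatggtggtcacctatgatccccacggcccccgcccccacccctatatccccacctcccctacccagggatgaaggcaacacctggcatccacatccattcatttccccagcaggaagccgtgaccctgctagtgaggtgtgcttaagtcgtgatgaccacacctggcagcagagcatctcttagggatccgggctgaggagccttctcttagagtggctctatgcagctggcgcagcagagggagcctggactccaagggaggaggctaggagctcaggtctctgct
Gabbr2, chr4:46991665-46991964, minus strand: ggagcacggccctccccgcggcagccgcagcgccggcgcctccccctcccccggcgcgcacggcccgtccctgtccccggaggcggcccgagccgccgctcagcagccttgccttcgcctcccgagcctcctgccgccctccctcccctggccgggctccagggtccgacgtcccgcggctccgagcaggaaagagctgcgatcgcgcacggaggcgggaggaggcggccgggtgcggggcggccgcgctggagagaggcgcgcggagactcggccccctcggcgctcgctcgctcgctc
The Gfap window holds 1 match to the STAT letters, which 8.3% of all 32851 windows hold. Nnat and Unc13c hold 1 NFI half-site each, present in 46.7% of windows, and Gabbr2 holds none of the 5. The AP-1 letters occur in 7.81% of windows, the SOX letters in 31% and the TATA letters in 24.9%. GC content was 55.7% for Gfap, 57.3% for Nnat, 59.3% for Unc13c and 80.3% for Gabbr2, against a median of 52.7% over all windows. A match describes letters and not a bound site.

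No gene of the core astrocyte programme named here passed the test. The glutamate transporter genes Slc1a2 and Slc1a3 differed by -0.13 (SE 0.15) and -0.15 (SE 0.12), and the GABA transporter gene Slc6a11 by -0.24 (SE 0.19). The water channel gene Aqp4 had a mean of 10198 ± 1060 in cortex and 10212 ± 1501 in hippocampus (SD, n = 6 each), with a difference of -0.0042 (SE 0.13) whose sign changed with the scaling. The transcription factor gene Sox9 differed by 0.56 (SE 0.42), with 311.3 in cortical Gq-Saline number 4 and 2253 to 3021 in the other cortical libraries. Id3, an inhibitor of basic helix-loop-helix factors, differed by 0.65 (SE 0.39), and Il33, a cytokine that astrocytes release, by -0.34 (SE 0.21). None of these 7 passed (adjusted p at least 0.856).

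Genes of forebrain patterning did not pass either, with 0 called of 32 tested, beside 0.123% called over all genes. Their median difference was 0.11, beside 0.12 for all genes. Lhx2, which specifies the cortex, differed by -0.02 (SE 0.29, above 0 under the other 3 scalings), and Emx2, a factor of cortex and hippocampus, by 0.10 (SE 0.27). Zbtb20, which specifies hippocampal neurons and is also expressed by astrocytes, differed by 0.14 (SE 0.21), from 1627 to 3693 in cortex and 1660 to 3838 in hippocampus. Emx1 had at most 1.82 normalised reads in any library and was not tested. Meis2, a homeodomain factor, had the smallest unadjusted p on the list, at 936 ± 210 in cortex and 369 ± 242 in hippocampus (-1.54, SE 0.37, adjusted p = 0.278). Fezf2, known from deep-layer cortical neurons, was higher in every hippocampal library, from 260.6 to 704 against 4.83 to 226 in cortex (2.43, SE 0.74, adjusted p = 0.571). Of 29 astrocyte transcription factors tested, 0 were called, with a median of -0.11, and Pou3f2 had the smallest p (-0.87, adjusted p = 0.701).

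Among 28 tested genes known to vary between astrocyte layers or subtypes, 2 were called higher in the hippocampus (Gfap and Nnat) and 2 in the cortex (Chrdl1 and Unc13c), beside 0.0474% and 0.0758% of all genes tested, with a median of -0.20. This list was chosen with earlier results of these data known, and its name is no independent evidence of a direction.

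Pathways of secreted signals held Chrdl1 and Dkk3, in lists to be read beside the 0.123% called over all genes. In the BMP and transforming growth factor pathway, 1 of 22 tested genes was called, Chrdl1 itself, with a list median of 0.07. The BMP receptor genes Bmpr2 (-0.57, SE 0.16, adjusted p = 0.509) and Bmpr1b (-0.37, SE 0.20, adjusted p = 0.856) did not pass. In the Wnt pathway 1 of 25 was called, Dkk3, with a list median of -0.17. Nkd1, a negative regulator of Wnt signalling, had 152 ± 82.4 in cortex and 40.2 ± 38.4 in hippocampus (-2.40, SE 0.86, adjusted p = 0.701). In the FGF and EGF receptor pathway 0 of 22 were called, with Egfr at -0.87 (SE 0.28, adjusted p = 0.661).

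Lists of transmitter handling, receptors and ion balance had Gabbr2 as their called member, and are to be read beside the 0.123% called over all genes. Of 17 tested genes of GABA and glycine handling, 1 was called, and the list median was -0.24. Abat, which breaks GABA down, differed by -0.32 (SE 0.18). Of 17 genes of glutamate uptake and the glutamine cycle 0 were called. Grm3, the metabotropic glutamate receptor of adult astrocytes, had 5149 ± 1143 in cortex and 3249 ± 560 in hippocampus (-0.65, SE 0.18, adjusted p = 0.452), and Grm5 had 134 ± 65.3 and 273 ± 41.7 (1.28, SE 0.52, adjusted p = 0.791) with no overlap between regions. Of 24 genes of potassium and water balance and gap junctions 0 were called, with the sodium pump subunit gene Atp1b2 at -0.47. Of 27 receptors 0 were called, with the sphingosine phosphate receptor gene S1pr1 at 4910 ± 1092 and 3005 ± 789 (-0.73, SE 0.20, adjusted p = 0.468). The calcium pump gene Atp2a2, among 29 genes of calcium and Gq signalling with 0 calls, was higher in every cortical library (2665 to 3704 against 1777 to 2301) and differed by -0.52 (SE 0.16, adjusted p = 0.571).

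Matrix, guidance and adhesion genes gave 1 call, beside 0.123% called over all genes. Of 33 tested synapse-building factors Chrdl1 was the only one called. Of 31 matrix genes 0 were called, with a median of 0.40. Sparc, a matrix protein that limits synapse formation, differed by 1.00 (SE 0.25, adjusted p = 0.342) and by 0.19 with the choroid plexus covariate. The brain proteoglycan gene Ncan differed by -0.39 (SE 0.13, adjusted p = 0.671). Of 33 axon guidance genes 0 were called, with a median of -0.28. Slit2, a repellent for growing axons, had 15.8 ± 15.5 in cortex and 165 ± 135 in hippocampus (3.59, SE 1.01, adjusted p = 0.468), and differed by 1.49 with the choroid plexus covariate. Efnb2, an ephrin, was higher in every cortical library (33.3 to 133 against 0 to 22), a difference of -3.08 (SE 1.00, adjusted p = 0.646). Of 32 adhesion genes 0 were called, with Cdh2, N-cadherin, at -0.96 (SE 0.27, adjusted p = 0.468).

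Metabolic and stress lists gave 1 call, beside 0.123% called over all genes. Of 40 lipid genes 0 were called. Dbi, an acyl-CoA binding protein, was higher in every hippocampal library (5775 to 13220 against 4228 to 5462, difference 0.65), and Acsl6, which activates long fatty acids, in every cortical one (4140 to 5239 against 2480 to 3725, difference -0.49), both without passing (adjusted p = 0.515 and 0.571). Of 23 genes of retinoid, thyroid and steroid hormone handling 0 were called. Of 18 reactive astrocyte genes 1 was called, Gfap, with a list median of 0.14, and Vim, the partner filament of GFAP, had 254 ± 118 in cortex and 594 ± 190 in hippocampus (1.39, SE 0.43, adjusted p = 0.577). The 42 tested ribosomal protein genes had a median of 0.09 and the 41 nuclear genes of oxidative phosphorylation one of 0.05, with 0 calls. In all, 24 of 30 lists with a tested member had 0 calls, which says little about a list when so few of all genes were called.

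Without the 4 libraries numbered 4, more genes were called. In the remaining 8 libraries, 4 per region, limma called 138 of 11716 genes (1.18%), 48 higher in the hippocampus (0.41%) and 90 in the cortex (0.768%). These include the 13 called over all 12 libraries. edgeR, an alternative chosen after seeing the data, called 103 (0.879%), 30 higher in the hippocampus (0.256%) and 73 in the cortex (0.623%), of which 100 were shared with limma.

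The genes that passed in these 8 libraries, where not called over all 12, are named after their values were seen or as members of the lists. Crym, which binds thyroid hormone and is known to mark astrocytes of some regions, had 253 ± 92.8 normalised reads in cortex and 9.35 ± 8.46 in hippocampus (SD, n = 4 each). The fitted difference was -4.99 (SE 0.64, adjusted p = 0.0002). Its hippocampal values were 3.475 to 21.83, so Crym passed the filter on low values through the cortical libraries, where it is high. Its call therefore supports nothing further. Over all 12 libraries its difference was -3.11 (adjusted p = 0.848), with 0 in cortical Gq-Saline number 4 and 200.2 in hippocampal Gq-Saline number 4, within the range of the other cortical libraries. Gabbr1, the partner subunit of Gabbr2 in the GABA-B receptor, had 5962 ± 337 and 3647 ± 176 (-0.75, SE 0.11, adjusted p = 0.00058), and Abat 7162 ± 655 and 4819 ± 385 (-0.61, SE 0.11, adjusted p = 0.0055). Grm3 (-0.85, adjusted p = 0.0055) and Glul, glutamine synthetase (-0.38, adjusted p = 0.038), passed in the same direction. So did Sfrp1, a secreted Wnt antagonist (-2.53, adjusted p = 0.0074, and 0.0741 in edgeR), and Nkd1 (-3.23, adjusted p = 0.0228, and 0.0681 in edgeR). With Dkk3 they made 3 of 27 tested Wnt genes higher in the cortex, beside 0.768% of all genes in that fit. Nkd1 had 5.26 to 47.8 in these hippocampal libraries and passed the filter on low values through the cortical ones, where it is high. Its call supports nothing further, and the list was chosen with earlier results of these data known. Ncan passed at -0.64, the deiodinase gene Dio2 at -0.79, Meis2 at -1.70, and Fam107a, an actin-associated protein of astrocytes, at -0.72.

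Higher in the hippocampus in these 8 libraries were Fezf2 at 543 ± 133 against 182 ± 33.8 (1.52, SE 0.24, adjusted p = 0.0023) and Hopx at 2644 ± 962 against 1200 ± 310 (1.07, SE 0.20, adjusted p = 0.0075). Angpt1, a ligand of the Tie2 receptor of blood vessels, had 511 ± 61.6 against 77.4 ± 21.8 (2.71, SE 0.29, adjusted p = 1.9e-05), and Cald1, which binds actin and myosin, 865 ± 167 against 166.8 ± 51.8 (2.37, SE 0.25, adjusted p = 1.6e-05). The next 3 genes also passed: Slit2 (3.35, adjusted p = 0.0121), Nr2f2, a nuclear receptor of caudal forebrain (2.55, adjusted p = 0.0126, and 0.0741 in edgeR), and Prox1, a factor of dentate gyrus granule cells (2.56, adjusted p = 0.0259). Over all 12 libraries Nr2f2 differed by 2.67, and by 0.41 with the choroid plexus covariate. Among 29 subtype genes, 2 were then higher in the hippocampus and 7 in the cortex, and among 35 patterning genes 3 and 1, beside 0.41% and 0.768% of all genes in that fit. The choroid plexus sum differed by 5.10 in these 8 libraries. The endothelial sum differed by 1.68, from 9.575 to 31.27 RPM in cortex and 48.0 to 60.7 RPM in hippocampus, and the sum of hippocampal excitatory neuron markers by 0.64. The part of these sums in the calls was not tested.

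The 13 genes were chosen on the Gq-Saline and Gq-CNO libraries together, so their values within each treatment are a description. Chrdl1 differed by -2.83 in Gq-Saline and by -2.71 in Gq-CNO libraries, Gfap by 2.29 and 1.44, Unc13c by -2.74 and -2.31, and Ttr by 4.28 and 5.89. With 3 against 3 libraries, limma called 0 of 11122 genes in Gq-Saline (0%, with 222 at an unadjusted p under 0.05) and 8 of 10440 in Gq-CNO (0.0766%). Whether the region difference itself changed with treatment was tested over the 12 libraries as an interaction. limma called 0 of 10559 genes (0%) with 226 at an unadjusted p under 0.05, edgeR called 0 and DESeq2 2. The power was low, since limma recovered 0% of 2-fold and 8% of 4-fold interactions in simulated libraries. For Gfap the interaction was -0.83 (SE 0.39, adjusted p = 0.968), and for Chrdl1 0.13 (SE 0.47, adjusted p = 0.984).

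**Figure D4:**
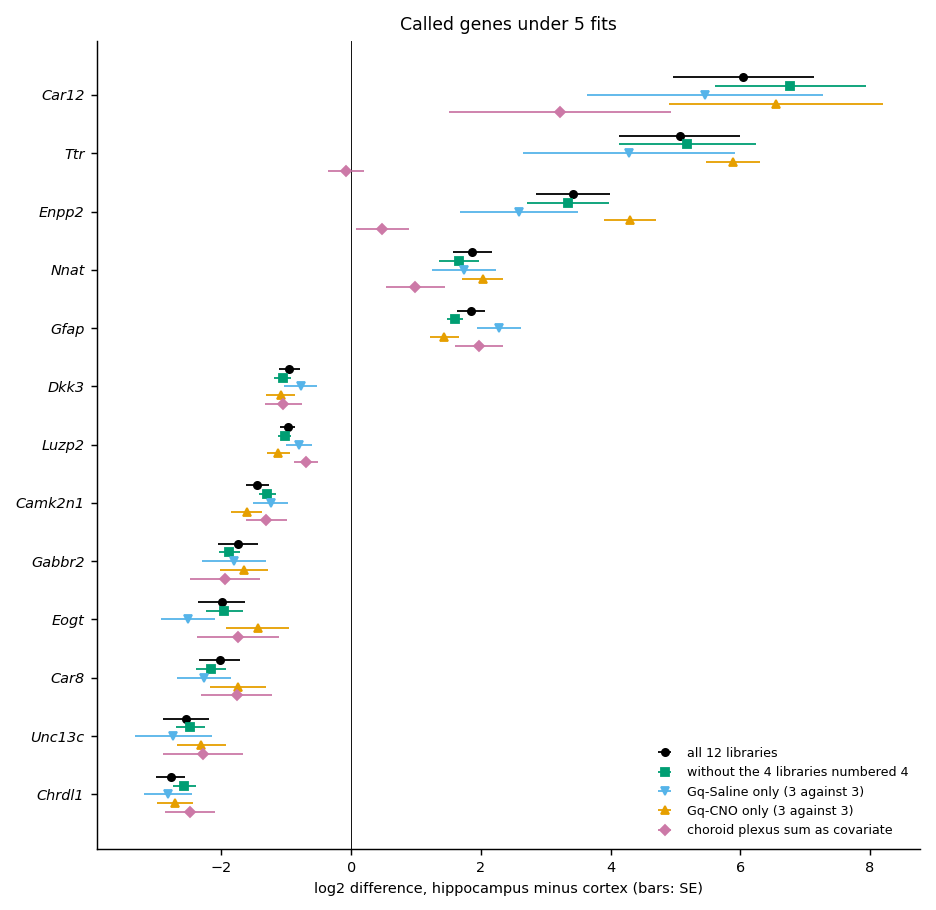
Difference of the 13 called genes (x axis, log2, hippocampus minus cortex, bars for SE) in 5 fits, from all 12 libraries, without the libraries numbered 4, within each treatment, and with the choroid plexus sum as a covariate. Ttr moves from 5.06 to -0.08 and Enpp2 from 3.42 to 0.48 with that covariate, and the 8 cortical genes stay below 0 in all 5 fits.

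The mCh sort gave a second set of 12 libraries from the same regions. These cells are labelled neurons, but the summed neuron markers, 3077 to 4493 RPM in cortex and 2114 to 2984 RPM in hippocampus, lay below those of microglia (10450 to 15700 and 9134 to 15570), oligodendrocytes (21070 to 39870 and 20960 to 60110) and astrocytes (5709 to 10340 and 6906 to 11600). Of 8964 genes tested, limma called 23 (0.257%), 7 higher in the hippocampus (0.0781%) and 16 in the cortex (0.178%). Gfap and Camk2n1 were called in both sorts, 15.4% of the 13 genes called in astrocytes and 8.7% of the 23 called in the mCh sort. Gfap differed by 3.89 in the mCh sort (SE 0.67, adjusted p = 0.0027), at a median of 4.60 RPM in cortex and 73.2 RPM in hippocampus, against 199 and 643 RPM in astrocytes. Camk2n1 differed by -1.76 (SE 0.18, adjusted p = 1.2e-06), at medians of 2382 and 696 RPM, above its astrocyte levels of 708 and 260 RPM.

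The other called genes that were tested in the mCh sort did not pass there. Chrdl1 differed by -2.46 (SE 0.94, adjusted p = 0.476) and Ttr by 2.503 (SE 1.25, adjusted p = 0.627). Unc13c differed by -0.88 (adjusted p = 0.238). Its mCh medians of 416 RPM in cortex and 252 RPM in hippocampus lay above its astrocyte medians of 141 and 29.4 RPM. Dkk3 differed by 0.73 (SE 0.35, adjusted p = 0.606), opposite to astrocytes. Gabbr2 (-0.07, SE 0.38) and Car8 (-0.09, SE 0.68) were near 0. In the test of the difference between the sorts limma called 0 of 11715 genes (0%), with 626 at an unadjusted p under 0.05, edgeR called 0 and DESeq2 34. The lowest adjusted p, 0.151, was that of Enpp2 (3.28, SE 0.64). For Dkk3 it was 0.249 (-1.67, SE 0.39), so no region difference was shown to belong to astrocytes alone. That test had low power, since limma recovered 1% of 2-fold and 11% of 4-fold changes in simulated libraries.

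**Figure D5:**
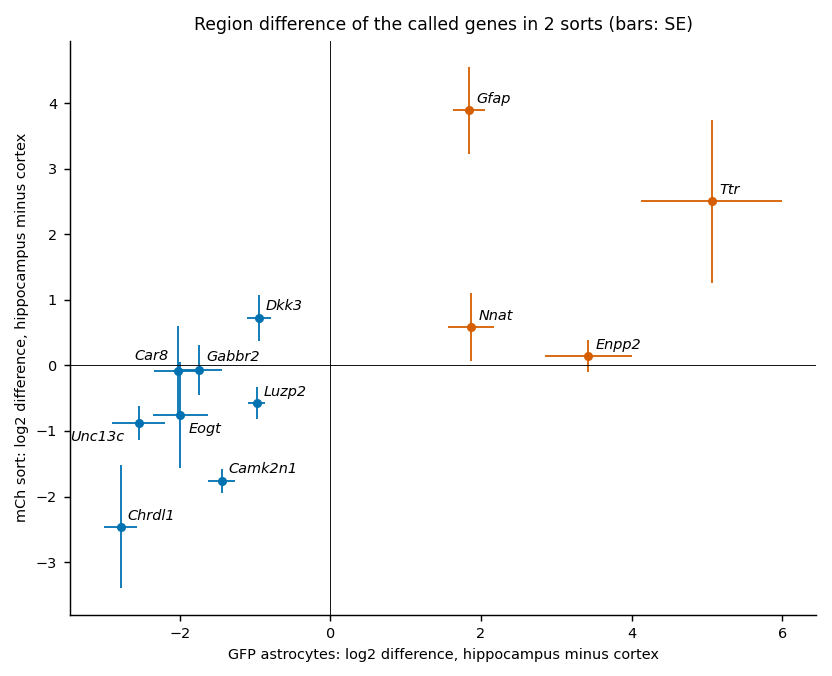
Difference between hippocampus and cortex in GFP astrocytes (x axis, log2) and in the mCh sort (y axis, log2), with SE bars, for the 12 called genes tested in both. Camk2n1 and Gfap lie away from 0 on both axes, and Dkk3 is the gene whose sign differs.

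Levels in olfactory bulb astrocytes, on the RPM scale and without a test, differed in which region they were near. Chrdl1 had 419 to 574 RPM in the olfactory bulb, 315 to 499 in cortex and 40.2 to 84.1 in hippocampus. Gfap had 583 to 696 RPM in the olfactory bulb, 558 to 862 in hippocampus and 89.1 to 229 in cortex. Luzp2 ran from 3233 to 3982 RPM in the olfactory bulb, within the cortical range of 2931 to 4392 and above the hippocampal range of 1720 to 2309. Camk2n1, Unc13c, Car8, Eogt and Dkk3 were lower in every olfactory bulb library than in every cortical one. Camk2n1 ran from 347 to 535 RPM, and Unc13c ran from 12.6 to 44.4 RPM there, Car8 from 2.5 to 15.15, Eogt from 8.98 to 24.1 and Dkk3 from 52.7 to 175. Ttr had at most 39.2 RPM in the olfactory bulb, overlapping the cortical range of 3.55 to 1478 and below every hippocampal library (806 to 9694).

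Slc22a3, the organic cation transporter named in the title of the series, had 14 reads in hippocampal Gq-CNO number 2 and 0 in the other 11 libraries. A count of 0 allows up to 3 reads, or 0.122 to 9.23 RPM at these depths, so no regional difference was detectable. Of 8 tested genes of organic cation and monoamine handling 0 were called, beside 0.123% over all genes. Slc29a4, another monoamine transporter, had 10.3 ± 25.3 in cortex and 57.6 ± 35.3 in hippocampus, but its cortical median was 0, and it passed the filter on low values through the hippocampal libraries, so no difference is given.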

How the data were processed

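The authors deposited normalised signal, which is the number of reads per gene over a size factor of its library, and each table has its own normalization. Per the submitters' processing notes, the tools were STAR 2.5.0a with the build mm10, DESeq2 1.30.1, FastQC 0.11.7 and MultiQC 1.11. Reads were recovered from each column's smallest step, with 100% of values within 0.05 of a whole number, and the 12 libraries were normalised together by median-of-ratios size factors. The region difference was fitted by limma 3.58.1 (R 4.3.3) to log2(value + 1), using a mean-variance trend and treatment as a covariate, for genes that reached 10 in 6 or more libraries, and p-values were adjusted by Benjamini-Hochberg over all genes tested. The deposited values are signal, so the test for signal was the main one and count tests were alternatives. Alternatives on the recovered reads used edgeR 4.0.16 and DESeq2 1.42.0. The scripts were tested on simulated data.

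Named are 14 fixed genes wherever tested, up to 15 genes per direction that passed without overlap and reach the median level, and up to 4 members of each list by unadjusted p, except a few genes that are not reported here. Members and lists were chosen with earlier results of these data known. Positions come from GENCODE vM21. The columns numbered 4 were assigned to a group only. No library was left out of the main comparison. Intervals and limits cover counting error only, since reads without molecular identifiers are not independent molecules. No pair of libraries was identical.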

Additional observations from a re-analysis of the deposited data

Results flagged for a closer look

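Values were screened in 76 groups of 6 libraries for 1 library far from the other 5, judged by its gap to the nearest divided by the group's range. Chance gives about 1 in 20, and 13 values stood out. In cortical Gq-Saline number 4, Sox9 had 311.3 normalised reads (others 2253 to 3021), Lhx2 had 581.6 (others 1929 to 3032), and the summed neuron markers 1604 RPM (others 563 to 739). In cortical Gq-CNO number 4, Slc1a3 had 38280 normalised reads (others 26670 to 29660) and Id3 had 116.2 (others 257.6 to 354.5). In hippocampal Gq-Saline number 4, Gfap had 5955 (others 3653 to 4126), Unc13c had 58.57 (others 152.8 to 238.8), and the summed cortical excitatory neuron markers were 1329 RPM (others 1781 to 2011). In hippocampal Gq-CNO number 4, Sox9 had 1552 (others 2939 to 3228) and Emx2 had 431.9 (others 880.5 to 1072). In libraries numbered 1 or 2, Zbtb20 had 3693 in cortical Gq-CNO number 1 (others 1627 to 2080), Car12 had 16.55 in cortical Gq-Saline number 1 (others listed at 0), and the summed oligodendrocyte precursor markers were 112.1 RPM in hippocampal Gq-CNO number 2 (others 152.2 to 180).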

How the results depend on the processing

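The count of 13 genes in astrocytes rose to 138 without the libraries numbered 4, 103 in edgeR without them, 282 with sample weights and 46 in DESeq2. It fell to 7 with no filter on low values, 2 with no mean-variance trend, 8 in Gq-CNO libraries and 0 in Gq-Saline libraries. It was 0 with the choroid plexus covariate, which widened the SEs, and 6 without the cortical Gq-CNO library of lowest depth. Leaving out 1 library at a time gave 6 to 21 genes, with 21 without cortical Gq-Saline number 4, 7 without cortical Gq-CNO number 1 or number 2 or hippocampal Gq-Saline number 1 or number 4, 8 without hippocampal Gq-CNO number 2, and 6 without cortical Gq-CNO number 4. For region by treatment the count was 2 in DESeq2 and 0 under each other alternative run.

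For the mCh sort the count of 23 became 87 in DESeq2, 38 with quantile normalization, 13 and 42 with pseudocounts of 0.1 and 10, 36 with at least 10 in at least 3 libraries, 6 with no filter, 5 with no trend, 42 with sample weights, 3 in Gq-Saline and 4 in Gq-CNO libraries, and 13 to 31 leaving out 1 library at a time. For the difference between the sorts, DESeq2 called 34, a pseudocount of 10 gave 1, sample weights 3, and leaving out 1 library 0 to 4, with 4 without cortical Gq-Saline GFP number 1.

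Same-numbered libraries of different groups deviated together with correlations of 0.0648 to 0.122, and 10 of 12 astrocyte libraries correlated best with their own number, a hint from the data and not from the design. With the replicate block the count was 11 in astrocytes, 43 in the mCh sort and 0 for region by treatment.

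Over the alternatives, the 13 called genes kept direction and call in 300 of 428 values and lost the call in 127, and Ttr turned to -0.0841 with the choroid plexus covariate. Of 78 named genes not called, 100 of 2568 values passed and 34 turned in sign. Lhx2 was 0.0163 with TMM scaling, 0.0403 with RPM scaling, 0.0765 with quantile normalization, 0.0563 without the library of lowest depth, 0.53 in Gq-Saline libraries and 0.34 with the choroid plexus covariate. Aqp4 was 0.0196 in edgeR, 0.00096 in DESeq2, 0.0314 with TMM scaling, 0.0554 with RPM scaling, 0.0434 with quantile normalization, 0.12 in Gq-Saline libraries and 0.22 with the choroid plexus covariate. In Gq-CNO libraries Emx2 was -0.37 and Sox9 -0.23, and in Gq-Saline libraries Slc1a2 was 0.0867, Gabbr1 0.0735 and Glul 0.02001. Zbtb20 was -0.0645 without the libraries numbered 4 and -0.10 in edgeR without them, and the choroid plexus covariate gave 0.11 for Slc1a2 and 0.0222 for Slc1a3. Leaving out 1 library at a time gave -0.337 to 0.0852 for Lhx2 and -0.0615 to 0.0479 for Aqp4. Of the marker sums, neurons turned to 0.13 without the libraries numbered 4, and as a median over markers astrocytes turned to 0.0175 and oligodendrocytes to -0.17. Leaving out 1 library at a time gave 3.915 to 5.968 for choroid plexus, -0.34 to 0.932 for microglia and -0.0717 to 0.368 for oligodendrocytes. The cause was not tested for any of these. Depth limits what low genes can show, most of all in the cortical Gq-CNO library of lowest depth, with 325129 reads.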
